A study of Mus musculus with 6 samples.

Results

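The genes described here are 36 genes of the G2 and M phases of the cell cycle, chosen by symbol from a deposited table of 17794 genes, with the Kif-named kinesins left out. All 36 were in the table and all 36 were tested, each with 929 to 28559 total gene reads in every library. RNA came from the medial ganglionic eminence (MGE), a zone of the embryonic ventral forebrain where precursors of cortical interneurons divide, dissected at E13.5. The dmut embryos were Rac1fl/fl;Rac3-/-, and the control embryos were Rac1+/+;Rac3+/+. Both genotypes carried Nkx2.1Tg(Cre), which drives recombination in the Nkx2-1 lineage only, and a heterozygous R26R-YFP reporter. The Rac3 deletion was thus present in every dmut cell, whereas Rac1 could be lost only where Cre was active. Each group had 3 libraries, and each library pooled the MGEs of 3 embryos. In such bulk samples fewer dividing cells and less RNA per dividing cell cannot be told apart.

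Entry into mitosis is driven by the kinase Cdk1 with A and B type cyclins, and the kinases Plk1, Aurka and Aurkb then act on centrosomes, kinetochores and the midzone. A spindle checkpoint holds anaphase back until every kinetochore is attached, after which the anaphase-promoting complex (APC/C) marks securin and cyclin B for destruction and separase cuts cohesin. Cytokinesis follows through a contractile ring of actin and myosin, in which Ect2 and Racgap1, a GTPase-activating protein that acts on Rac, take part. In the ventricular zone of the brain, radial glia divide at the ventricle, and the transcripts of these genes mark cells that are about to divide or are dividing.

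Most of these genes share promoter elements through which they are switched on late in the cell cycle. The cell cycle genes homology region (CHR) is bound by MuvB complexes, and the CCAAT box by NF-Y. RefSeq promoter windows (GRCm38.p6, 250 bases before to 50 after the annotated start) were matched by symbol for 31 of the 36 genes, with none used for Ccna2, Aurkb, Incenp, Tpx2 and Cdc25c. The CHR was searched as TTTGAA and TTCGAA and the CCAAT box as CCAAT, on both strands, and overlapping matches were counted separately. A CHR match was found in 23 of the 31 windows (74.2%), against 19.4% of 27025 windows and 13.3% of the 11083 windows of tested genes. A CCAAT match was found in 24 windows (77.4%), against 37.9% of all windows, and a CHR with at least 2 CCAAT matches in 15 (48.4%), against 2.43% of all windows. A match is a description of the letters and not a bound site. The promoters of 5 members are shown, picked by values given below. Cdk1 and Plk1 were higher in dmut without overlap in all of 3 measures, 2 of 36 members against 4.15% of all genes. Espl1 was lower without overlap in all 3, 1 of 36 against 12.5% of all genes. Mki67 and Top2a are shown because their ratio separated the groups. Each promoter shown is the 250 bases before the start, 5′ to 3′ on the gene's strand, with CHR and CCAAT matches in capitals. The windows are chr10:69352913-69353162 for Cdk1 (minus strand), chr7:122159185-122159434 for Plk1 (plus strand), chr15:102296043-102296292 for Espl1 (plus strand), chr7:135716380-135716629 for Mki67 (minus strand) and chr11:99024190-99024439 for Top2a (minus strand).
Cdk1: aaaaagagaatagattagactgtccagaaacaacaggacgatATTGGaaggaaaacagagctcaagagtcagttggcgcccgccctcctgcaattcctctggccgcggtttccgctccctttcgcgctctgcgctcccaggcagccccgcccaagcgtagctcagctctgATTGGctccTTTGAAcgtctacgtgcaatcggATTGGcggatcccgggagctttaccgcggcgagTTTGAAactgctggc
Plk1: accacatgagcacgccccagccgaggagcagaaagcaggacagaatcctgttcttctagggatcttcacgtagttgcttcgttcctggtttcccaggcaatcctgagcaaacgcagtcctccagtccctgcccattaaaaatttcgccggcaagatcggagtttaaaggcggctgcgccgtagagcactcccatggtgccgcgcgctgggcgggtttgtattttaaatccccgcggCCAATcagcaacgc
Espl1: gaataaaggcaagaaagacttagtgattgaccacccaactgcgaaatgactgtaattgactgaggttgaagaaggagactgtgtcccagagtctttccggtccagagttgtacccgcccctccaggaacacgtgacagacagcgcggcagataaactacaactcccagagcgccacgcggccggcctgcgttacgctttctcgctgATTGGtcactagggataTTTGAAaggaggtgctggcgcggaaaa
Mki67: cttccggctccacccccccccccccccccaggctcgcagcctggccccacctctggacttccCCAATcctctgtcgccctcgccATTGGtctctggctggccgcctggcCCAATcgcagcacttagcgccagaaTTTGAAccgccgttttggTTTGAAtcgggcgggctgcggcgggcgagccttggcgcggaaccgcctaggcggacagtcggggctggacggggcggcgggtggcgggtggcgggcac
Top2a: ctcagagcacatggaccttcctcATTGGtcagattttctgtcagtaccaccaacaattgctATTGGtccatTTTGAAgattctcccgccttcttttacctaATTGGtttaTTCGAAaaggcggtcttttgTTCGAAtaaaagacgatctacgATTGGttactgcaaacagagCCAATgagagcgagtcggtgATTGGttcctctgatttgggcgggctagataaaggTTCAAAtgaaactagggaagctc
Within these 250 bases Top2a held 4 CHR and 6 CCAAT matches, Cdk1 2 and 3, Mki67 2 and 3, and Espl1 1 and 1, while Plk1 held no CHR and 1 CCAAT match. Plk1 is still counted above with a CHR, as its 1 match in the searched window ends beyond the printed bases. Whether the number of matches goes with the fold over the matched members was not tested.

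Libraries held 26766556 to 30363369 total gene reads in dmut and 31881697 to 34612095 in control. Rac3 had 16, 0 and 0 reads in the dmut libraries, in order of replicate, against 728, 647 and 532 in control. Rac1 had 6101, 7442 and 6586 reads in dmut and 10012, 10228 and 9043 in control (log2 fold of dmut over control -0.13 ± 0.10 SE, edgeR adjusted p = 0.525), a count that includes cells outside the Cre lineage and reads from outside the deleted part. The MGE factor Nkx2-1 stood at 65.7 to 81.6 RPKM (reads scaled by exon length and library size) in dmut and 73.8 to 96.6 RPKM in control, so the labelled tissue expressed its defining gene in every library. Dmut replicate 2 stood apart in its markers of cortical excitatory neurons, whose summed level over 13 genes was 29.1 RPKM, against 4.57 RPKM in replicate 1 and 8.0 RPKM in replicate 3 of dmut and 10.2 to 19.3 RPKM in control.

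No G2/M gene passed the test in dmut against control. Of 15960 genes tested, 0.482% passed at an adjusted p of 0.05 (edgeR quasi-likelihood test, Benjamini-Hochberg over all genes), and 0 of the 36 members did (0.163% of all genes passed as higher and 0.32% as lower in dmut). At an adjusted p of 0.1 there were 4, Cdk1, Cks1b, Cks2 and Plk1, each higher in dmut, against 6.67% of all genes in either direction and 3.38% higher. At an unadjusted p under 0.05 there were 8 members, against 21.3% of all genes, and all 8 were higher in dmut, a direction and threshold met by 11.1% of all genes. DESeq2 called 5 members, Cdk1, Cks1b, Cks2, Plk1 and Birc5, all higher in dmut, where it called 5.76% of all genes higher, whereas limma-voom called 0. The log2 fold of dmut over control ran from -0.20 for Mki67 to 0.66 for Cks2, with a median of 0.14 over the members and -0.02 over all genes tested. It was positive in 28 of 36 members and in 47.3% of all genes. In TMM-normalised CPM 9 members were higher in all dmut libraries than in any control library (Ccna2, Ccnb2, Cdk1, Cks1b, Cks2, Plk1, Bub1b, Birc5 and Tpx2), against 13.6% of all genes. By RPKM 3 were higher (Cdk1, Cks2 and Plk1), against 4.9%, and 4 lower (Espl1, Aspm, Anln and Racgap1), against 26.4%. These counts depend on the scaling. With library size in place of TMM factors the median of all genes moved from -0.02 to -0.23, and 11 members were positive. The 11 were Ccnb2, Cdk1, Cks1b, Cks2, Plk1, Cdc20, Ube2c, Ndc80, Birc5, Incenp and Tpx2. The member median was 0.16 above that of all genes under either scaling. Scaling factors shift all folds by nearly the same amount, so this distance could hardly change. It was 0.07 with log2(RPKM + 1) and 0.15 with log2(RPKM + 0.1).

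**Figure D1:**
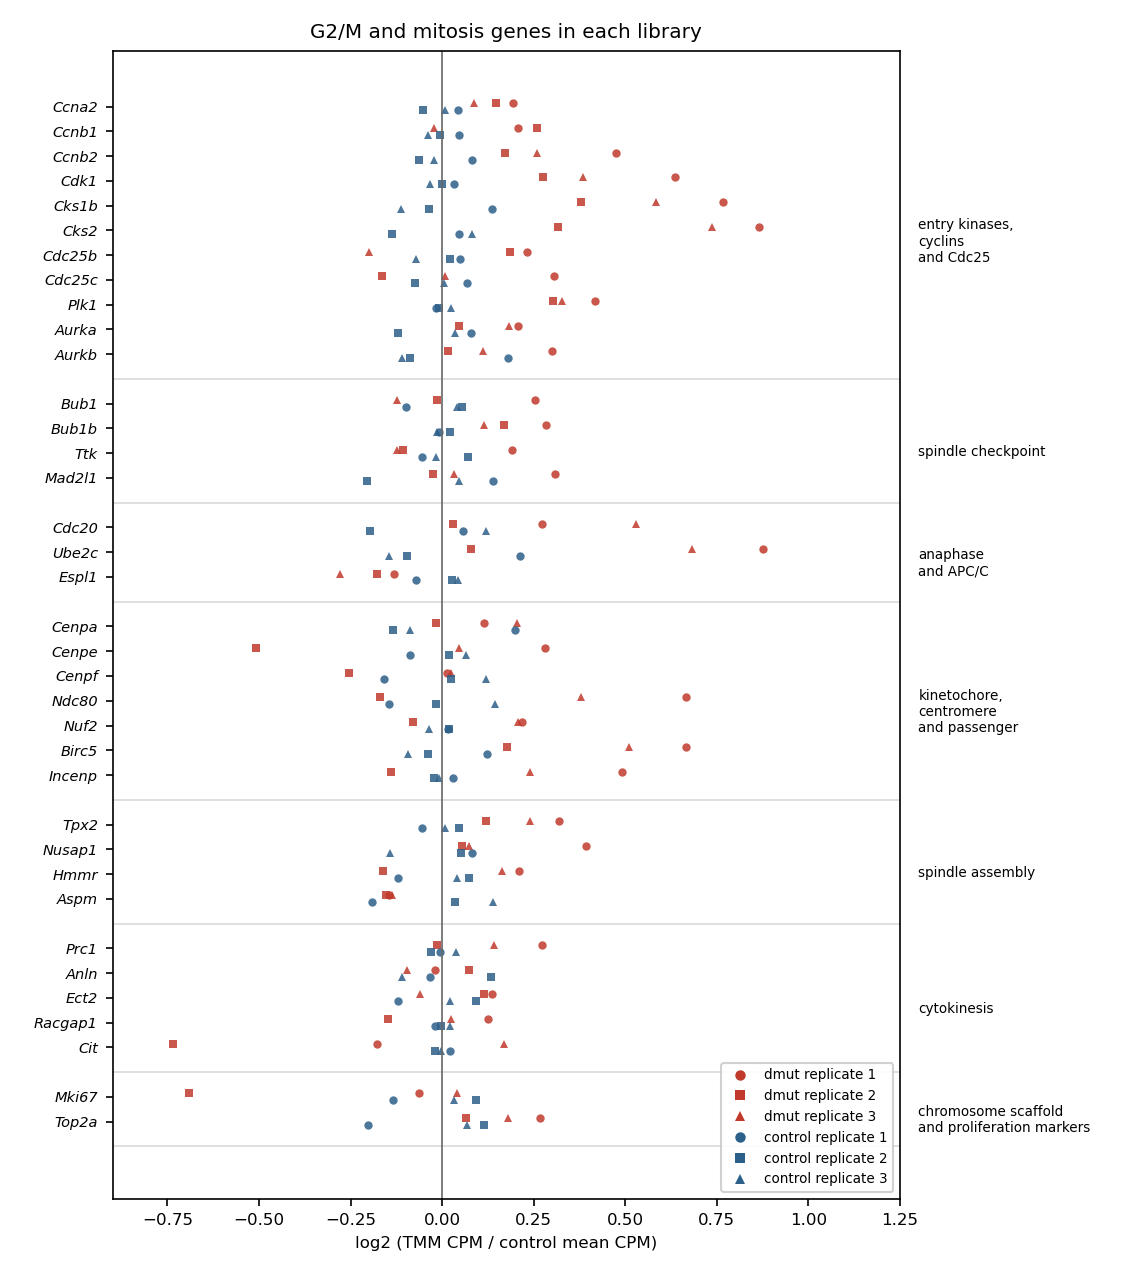
The log2 ratio of TMM-normalised CPM to the control mean, for each member (rows, by role) and library (red for dmut, drawn above, blue for control; circle, square and triangle for replicates 1, 2 and 3). Values of Cdk1, Cks1b, Cks2 and Plk1 lay to the right of every control library in all dmut libraries, and dmut replicate 2 held the lowest dmut value in 27 of 36 rows.

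With TMM scaling of total reads, the mitotic entry machinery was the 1 group in which no fold was negative. Its 11 genes of cyclins, kinases and Cdc25 phosphatases had a median log2 fold of 0.15 (-0.05 with library size alone). With library size alone the folds of Ccna2, Ccnb1, Cdc25b, Cdc25c, Aurka and Aurkb were negative. With length and GC taken out, the checkpoint and kinetochore groups held no negative fold either, nor did the checkpoint group on unique reads. Of the 11, 5 had an unadjusted p under 0.05, all higher in dmut, against 11.1% of all genes. All 11 had 4934 bp of exon or less. With the dependence on exon length and GC content taken out, the group median was 0.22. It was then 0.18 for checkpoint, 0.20 for anaphase, 0.21 for kinetochore and 0.23 for spindle assembly genes. Cytokinesis genes stood at 0.07, and Mki67 with Top2a at 0.06. The part of length in the contrast between groups was not tested. Cdk1, the kinase that triggers mitosis (chromosome 10, 69335146 to 69352938), had 218, 169.9 and 183 CPM (reads scaled to library size with TMM factors) in the dmut libraries, against 144, 140.5 and 137 CPM in control. Every dmut library thus lay above every control library. The means were 191 ± 24.9 CPM in dmut and 140.5 ± 3.08 CPM in control (SD, n = 3 each), or 0.44 ± 0.11 (SE) on the log2 scale, short of the threshold (edgeR adjusted p = 0.0926). In RPKM Cdk1 stood at 56.6, 43.7 and 50.9 in dmut and 42.4, 42.4 and 40.0 in control, again without overlap.

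Plk1, the polo kinase of centrosomes and kinetochores (chromosome 7, 122159439 to 122169873), had 112, 104 and 105 CPM in dmut and 83.1, 83.6 and 85.5 CPM in control, without overlap. Its log2 fold was 0.35 ± 0.08 (SE; edgeR adjusted p = 0.0856), and its RPKM of 46.0, 42.3 and 46.0 in dmut exceeded 39.3, 40.0 and 39.2 in control. Cdk1 and Plk1 were the only members higher without overlap in total CPM, unique CPM and RPKM alike, 2 of 36 against 4.15% of all genes.

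The Cks subunits bind Cdk1 and its relatives and guide them to phosphorylated substrates. Cks1b (chromosome 3, 89415472 to 89418383) stood at 64.3, 49.2 and 56.7 CPM in dmut and 41.6, 36.9 and 35.0 CPM in control, a log2 fold of 0.58 ± 0.13 (SE; edgeR adjusted p = 0.0806, the lowest among the members). Its groups did not overlap in CPM, but dmut replicate 2 (39.2 RPKM) was just below control replicate 1 (39.3 RPKM) on the RPKM scale. Cks2 (chromosome 13, 51645232 to 51650660) had the highest fold of all members, at 88.5, 60.5 and 81.0 CPM in dmut and 50.1, 44.2 and 51.4 CPM in control (log2 0.66 ± 0.15 SE, edgeR adjusted p = 0.0856). Most Cks2 reads also matched elsewhere in the genome. The share of reads that were not unique was 72.7%, 72.5% and 68.2% in dmut and 65.4%, 67.4% and 63.4% in control, so it was higher in every dmut library. Counted on unique reads, Cks2 stood at 28.6, 19.7 and 30.2 CPM in dmut and 20.3, 16.8 and 21.9 CPM in control, the groups overlapped, and the log2 fold was 0.41.

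The cyclins were closer to their control values. Ccna2, the A type cyclin of S and G2, had 247, 239 and 229 CPM in dmut and 222, 208 and 217 CPM in control (log2 0.14 ± 0.08 SE, edgeR adjusted p = 0.386). Its groups did not overlap in CPM but overlapped in RPKM, where dmut spanned 61.3 to 63.4 and control 63.4 to 67.3. Ccnb1, the main mitotic B cyclin, had 259.9, 269 and 222 CPM in dmut and 232, 224 and 219 CPM in control, with dmut replicate 3 inside the control range. Ccnb2 had 94.9, 76.9 and 81.6 CPM in dmut and 72.2, 65.3 and 67.2 CPM in control (log2 0.31 ± 0.11 SE, edgeR adjusted p = 0.158). Reads that were not unique made up 19.6% to 22.8% of Ccna2 reads in dmut and 19.2% to 26.7% in control. For Ccnb1 they made up 26.8%, 26.4% and 19.0% in dmut and 17.9% to 19.7% in control. In the 33 members other than Cks2, Ccna2 and Ccnb1 the share stayed under 5% in every library. The Cdc25 phosphatases, which remove the inhibitory phosphates of Cdk1, and the Aurora kinases all overlapped between the groups: log2 folds were 0.08 for Cdc25b, 0.06 for Cdc25c and 0.15 for both Aurka and Aurkb, and none of these kept its sign with library size alone.

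**Figure D2:**
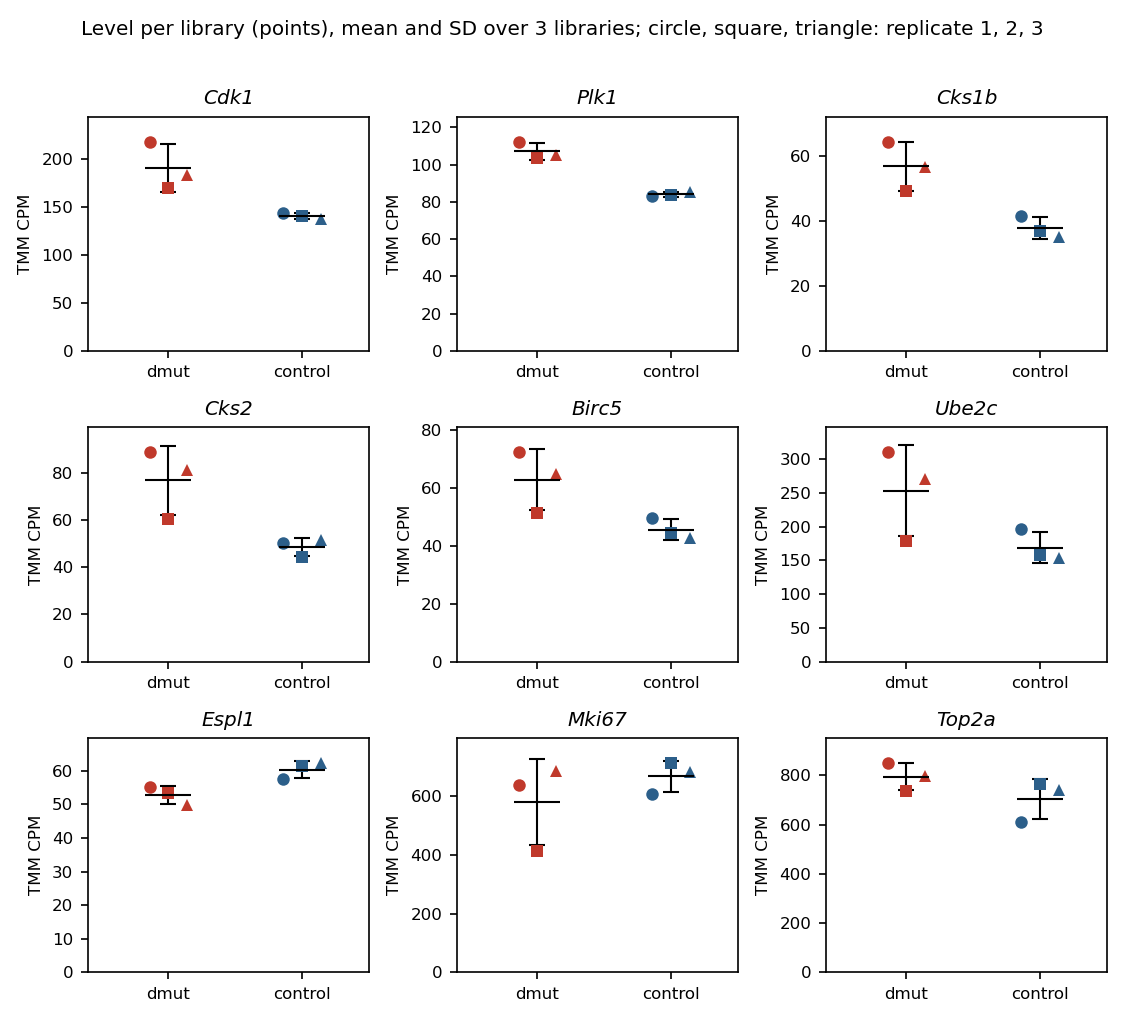
TMM-normalised CPM (vertical axes, from 0) of 9 members in dmut (red) and control (blue) libraries, with the mean and SD over 3 libraries in black. Cdk1, Plk1, Cks1b, Cks2 and Birc5 were above the control range in every dmut library, Espl1 was below it, and in Mki67 dmut replicate 2 (414 CPM) stood far below the other 5 libraries.

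Spindle checkpoint genes had a median log2 fold of 0.08 over 4 members (-0.13 with library size alone). Of the 4, Bub1b, which encodes the BubR1 inhibitor of the APC/C, had the highest fold, at 186, 171 and 165 CPM in dmut and 152, 155 and 151 CPM in control (log2 0.19 ± 0.09 SE, edgeR adjusted p = 0.255). Its groups were separate in CPM but overlapped in RPKM, where dmut spanned 35.8 to 39.0 and control 36.7 to 38.5. The kinase Bub1 (log2 0.05), the kinase Ttk, also called Mps1 (-0.01), and Mad2l1, which encodes Mad2 (0.11), overlapped, and in each of the 3 dmut replicate 1 was the highest library of all 6. In the same order their 95% intervals were -0.23 to 0.32, -0.28 to 0.26 and -0.20 to 0.42, so equal levels are not shown.

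The genes of anaphase gave values in opposite directions. Ube2c, the ubiquitin-conjugating enzyme of the APC/C (chromosome 2, 164769898 to 164778822), had 309.8, 178 and 271 CPM in dmut and 196, 158 and 153 CPM in control. Dmut replicates 1 and 3 were far above the control range and dmut replicate 2 was inside it, and the log2 fold of 0.58 ± 0.21 (SE) did not pass (edgeR adjusted p = 0.167). Cdc20, the APC/C activator, stood at 129.5, 109.6 and 155 CPM in dmut and 112, 93.6 and 117 CPM in control (log2 0.29 ± 0.15 SE, edgeR adjusted p = 0.313). Espl1, which encodes separase (chromosome 15, 102296266 to 102324357), was the 1 member lower without overlap in CPM, against 14.9% of all genes. It had 55.1, 53.3 and 49.8 CPM in dmut and 57.4, 61.5 and 62.2 CPM in control (log2 -0.20 ± 0.09 SE, edgeR adjusted p = 0.264). In RPKM the gap was wider, with 7.28, 7.06 and 7.16 in dmut and 8.98, 9.70 and 9.59 in control, and Espl1 was the 1 member called with library size alone (log2 -0.40, edgeR adjusted p = 0.0478, where 4.56% of all genes were called lower).

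Among the 7 kinetochore, centromere and chromosomal passenger genes the median log2 fold was 0.12 (-0.08 with library size alone). Birc5, or survivin, which targets Aurkb to centromeres (chromosome 11, 117849251 to 117855743), had 72.3, 51.5 and 65.0 CPM in dmut and 49.6, 44.4 and 42.7 CPM in control. Those groups did not overlap, and the log2 fold was 0.46 ± 0.14 (SE; edgeR adjusted p = 0.123). Its partner Incenp had 168, 108 and 141 CPM in dmut and 122, 117 and 119 CPM in control, with dmut replicate 2 the lowest of all 6 libraries. Ndc80, a microtubule-binding kinetochore subunit, also had its lowest value in dmut replicate 2, at 66.3, 37.1 and 54.3 CPM in dmut and 37.8, 41.3 and 46.2 CPM in control (log2 0.33 ± 0.20 SE, edgeR adjusted p = 0.411). Cenpe, a kinesin motor of the kinetochore, had 159.6, 92.4 and 136 CPM in dmut and 124, 133 and 138 CPM in control, so that dmut replicates 1 and 2 lay on opposite sides of the control range. Ndc80's partner Nuf2 (log2 0.12), the centromeric histone Cenpa (0.10) and the kinetochore protein Cenpf (-0.07) overlapped between the groups.

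Spindle assembly genes were led by Tpx2, which activates Aurka on spindle microtubules. It had 276, 240.2 and 261 CPM in dmut and 213, 228 and 222 CPM in control, without overlap (log2 0.23 ± 0.09 SE, edgeR adjusted p = 0.211). Nusap1 (log2 0.18) and Hmmr (0.08), both microtubule-binding proteins of the spindle, overlapped. Aspm, a spindle pole protein of neural progenitors, stood at 126, 125 and 127 CPM in dmut, an SD of 0.660 CPM, and at 122, 143 and 153 CPM in control (log2 -0.15 ± 0.10 SE, edgeR adjusted p = 0.485).

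Cytokinesis genes had a median log2 fold of 0.005 over 5 members (-0.20 with library size alone). Racgap1, which acts with Ect2 at the midzone, was at 349, 289 and 325 CPM in dmut and 316, 319.7 and 325 CPM in control. The means of 321 ± 30.1 CPM in dmut and 320.1 ± 4.42 CPM in control (SD, n = 3 each) nearly coincided with TMM scaling, and the 95% interval of the log2 fold was -0.23 to 0.24. With library size alone the log2 fold of Racgap1 was -0.20. Its RPKM was 44.3, 36.6 and 44.3 in dmut and 47.1, 47.9 and 47.4 in control, lower without overlap, as in 26.4% of all genes. Ect2, a guanine nucleotide exchange factor of the cleavage furrow, had 133, 131 and 116 CPM in dmut and 112, 129 and 123 CPM in control (log2 0.07, 95% interval -0.17 to 0.30). Anln, which links actin and myosin in the ring, stood at 75.0, 79.9 and 71.1 CPM in dmut and 74.2, 83.2 and 70.3 CPM in control (log2 -0.01, 95% interval -0.24 to 0.22). Prc1, the midzone bundler, had a log2 fold of 0.14. Cit, the citron kinase of abscission, had the largest coefficient of variation among the members in dmut, with 50.1, 34.1 and 63.7 CPM, against 57.5, 55.9 and 56.6 CPM in control (log2 -0.20 ± 0.21 SE, edgeR adjusted p = 0.642). These intervals allow changes of either sign, so that equal levels in the groups are not shown.

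Mki67 and Top2a, the most abundant members by CPM, had folds of opposite sign. Mki67, which encodes the Ki-67 coat of mitotic chromosomes (chromosome 7, 135689784 to 135716361), had 639.6, 414 and 688 CPM in dmut and 609.7, 713 and 683 CPM in control (log2 -0.20 ± 0.19 SE, edgeR adjusted p = 0.612). Top2a, the topoisomerase that untangles sister chromatids (chromosome 11, 98992943 to 99024189), had 849, 738 and 798 CPM in dmut and 612, 763 and 739 CPM in control (log2 0.17 ± 0.12 SE, edgeR adjusted p = 0.486). Neither gene separated the groups by its own level. The ratio of Mki67 to Top2a reads within a library, which no scaling factor can change, was 0.753, 0.561 and 0.862 in dmut and 0.995, 0.934 and 0.924 in control, so every dmut library lay below every control library. The same ratio on RPKM was 0.680, 0.506 and 0.776 in dmut and 0.904, 0.841 and 0.831 in control. Ccnb1 to Cdk1 reads, cyclin to kinase, gave 1.19, 1.59 and 1.21 in dmut and 1.62, 1.60 and 1.59 in control, and on unique reads 0.873, 1.17 and 0.981 in dmut and 1.33, 1.28 and 1.28 in control. On RPKM the Ccnb1 to Cdk1 ratio was 0.984, 1.31 and 1.00 in dmut and 1.38, 1.34 and 1.35 in control. These groups did not overlap, though on total reads dmut replicate 2 (1.585) was only just below control replicate 3 (1.594). On total reads the other ratios computed overlapped between the groups: Cks2 to Cks1b gave 1.38, 1.23 and 1.43 in dmut and 1.21, 1.20 and 1.47 in control, and Ccnb1 to Ccnb2 gave 2.74, 3.50 and 2.72 in dmut and 3.22, 3.43 and 3.26 in control. On unique reads Ccnb1 to Ccnb2 gave 2.01, 2.58 and 2.20 in dmut and 2.64, 2.76 and 2.62 in control, without overlap. With 3 libraries in each group an exact permutation test cannot go below 0.1, and these pairs were picked after their values were seen, so no test is given.

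**Figure D3:**
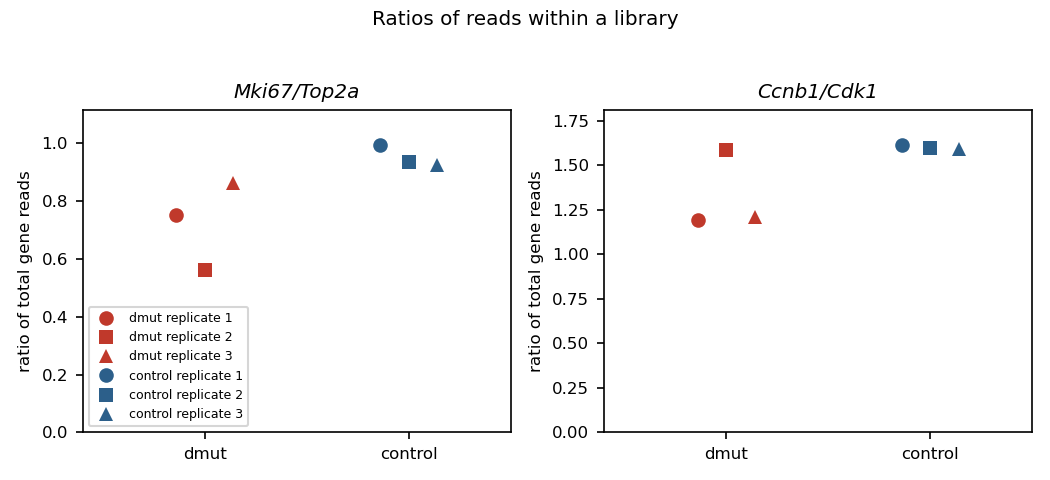
Ratios of total gene reads within each library (vertical axes, from 0), Mki67 to Top2a on the left and Ccnb1 to Cdk1 on the right, in dmut (red) and control (blue). The Mki67 to Top2a ratio was at most 0.862 in dmut and at least 0.924 in control. For Ccnb1 to Cdk1 on these total reads, dmut replicate 2 (1.585) was only just below the lowest control library (1.594).

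By RPKM, which permits comparison between genes, the order in dmut ran from Cks2 (100.3 ± 20.1), Ube2c (89.9 ± 24.8) and Top2a (80.9 ± 6.83) to Aspm (9.94 ± 0.445), Espl1 (7.17 ± 0.108) and Cit (2.77 ± 0.994; SD, n = 3). In control it ran from Top2a (82.4 ± 9.66), Mki67 (70.6 ± 5.59) and Cks2 (70.1 ± 4.67) to Aspm (12.5 ± 1.40), Espl1 (9.42 ± 0.389) and Cit (3.62 ± 0.0484). The 3 leading genes in dmut, and Mki67 and Cks2 in control, did not differ beyond their spread, while Cit was below every other member in both groups. Between 63.4% and 72.7% of Cks2 reads were not unique, so its place in this order may rest on reads that also matched elsewhere. Its mean was 76.7 CPM on total reads and 26.2 CPM on unique reads in dmut, and 48.6 and 19.7 CPM in control. Summed over the 36 genes, dmut replicates 1, 2 and 3 held 1389, 1111 and 1373 RPKM and control replicates 1262, 1255 and 1236 RPKM. Dmut libraries 1 and 3 thus lay above all control libraries and dmut library 2 below them.

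Dmut replicate 2 gave the lowest dmut CPM in 27 of the 36 genes, against 33.4% of all tested genes, and dmut replicate 1 the highest in 28, against 36.3%. Set against the control mean, the median member stood at 0.27, 0.02 and 0.13 (log2 CPM) across dmut replicates 1 to 3 and at -0.004 to 0.02 in control. For the kinetochore group these dmut values were 0.28, -0.14 and 0.21. Without dmut replicate 2 the test called 4 members, all higher in dmut: Cks2 (log2 0.80, edgeR adjusted p = 0.0375), Ube2c (0.78, 0.0468), Cks1b (0.68, 0.0459) and Birc5 (0.59, 0.0489), where 2.42% of all genes were called higher. Mki67 then stood at -0.01, and the median over the members at 0.19. Without dmut replicate 1 the test called 0 members, and the median over the members was 0.06, against 0.14 with all libraries. Dmut replicate 2 is the library with the highest cortical excitatory signal. The list had a median of 1.41 relative to the control mean in it, against -2.16 and -1.32 in dmut replicates 1 and 3 and -0.77 to 0.34 in control. Of the 13, Neurod1, Neurog2, Slc17a7, Bhlhe22 and Fezf2 were listed at 0 in some libraries. The part of this signal in the member values was not tested. Among markers of other cells, summed erythroid levels were 41755, 11523 and 14077 RPKM in dmut and 16679 to 28179 RPKM in control. Summed endothelial levels were 51.1 to 76.3 RPKM in dmut and 55.7 to 62.1 RPKM in control, microglial levels 49.1 to 59.9 RPKM in dmut and 34.3 to 46.9 RPKM in control, and mesenchymal levels 6.15 to 8.68 RPKM in dmut and 10.3 to 14.5 RPKM in control. These lists held 10 erythroid, 11 endothelial, 11 microglial and 8 mesenchymal genes, and 0 of them passed the edgeR test. In the same order 1, 1, 3 and 2 had an unadjusted p under 0.05, against 21.3% of all genes tested. The part of these cells in the member values was not tested either.

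Member folds ordered by transcript length. Across the 36 genes the log2 fold correlated with exon length in the GENCODE M21 annotation at a Spearman coefficient of -0.76 (-0.66 with the longest transcript), and across 14937 tested genes at -0.27, as descriptions over genes that share libraries. The 8 members with under 3000 bp of exon, among them Cks2, Cks1b, Ube2c and Plk1, had a median log2 fold of 0.33, against 0.15 for 4697 tested genes of that length. The 18 of 3000 to 8000 bp had 0.13 against -0.04, and the 10 over 8000 bp, among them Mki67, Cenpf, Aspm, Espl1 and Cit, had -0.05 against -0.14. The class bounds were chosen after the values were seen. The relation varied between libraries: relative to the control mean, the coefficient over the members was -0.64, -0.72 and -0.50 in dmut replicates 1, 2 and 3, and -0.64, 0.50 and 0.38 in control replicates 1, 2 and 3. Control replicate 1 thus shared the sign of the dmut libraries. With the dependence on exon length and GC content taken out library by library, no member was called, the coefficient over the members was -0.59, the member median was 0.21, and Cdk1 (0.51), Birc5 (0.52) and Ube2c (0.55) stood near their first values and Cks2 at 0.35. The part of length in the single folds was not tested further.

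**Figure D4:**
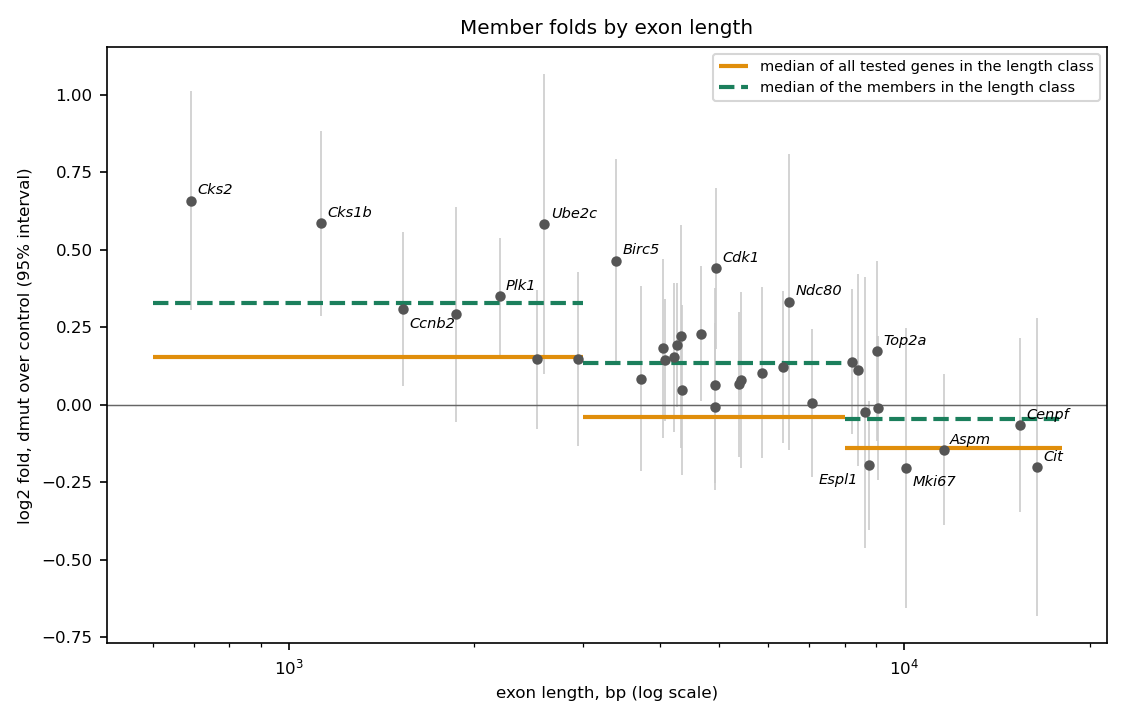
The log2 fold of dmut over control with its 95% interval (vertical axis) against exon length on a log scale (horizontal axis) for the 36 members. Solid orange lines mark the median of all tested genes and dashed green lines that of the members in each of 3 length classes; the members fall from 0.33 below 3000 bp to -0.05 above 8000 bp, and all genes from 0.15 to -0.14.

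Dates in the sample titles split the libraries further. Dmut replicates 1 and 2 and control replicate 2 carried 29 March, replicate 3 of both groups 4 May, and control replicate 1 alone 23 March. Within 29 March the member median was 0.18 higher on the log2 scale in the mean of 2 dmut libraries than in the 1 control library, with 26 members higher. Within 4 May, with 1 library each, it was 0.13 higher, with 27 members higher. The median of all tested genes was -0.008 within 29 March and -0.004 within 4 May. The share of all genes higher within a date was not computed, so the member counts have no background beside them. Cdk1 (0.47 and 0.42), Plk1 (0.37 and 0.30), Cks1b (0.62 and 0.70) and Espl1 (-0.18 and -0.32) had the same sign at both dates, whereas Mki67 stood at -0.44 within 29 March and 0.01 within 4 May.

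Spread was wider in dmut for 29 of 36 members, where 70% of all tested genes had a larger coefficient of variation in dmut. The median coefficient of variation was 11.98% in dmut and 6.40% in control over the members, and 16.3% in dmut and 10.8% in control over all tested genes.

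Beyond the members, 106 other mitotic genes (kinetochore, condensin, APC/C, augmin and centrosome genes, and the late cell cycle regulators Foxm1 and Mybl2) were measured, and 0 passed the test (edgeR quasi-likelihood test, with 18 at an unadjusted p under 0.05, where 21.3% of all genes were). Their median log2 fold was 0.04, with 61 of 106 positive, and -0.16 with library size alone. The 3 of smallest p in each direction are given as values. Mad1l1, a checkpoint protein, stood at 61.2 ± 12.4 CPM in dmut and 43.3 ± 0.813 CPM in control (log2 0.50, edgeR adjusted p = 0.120). Ube2s, which extends ubiquitin chains with the APC/C, stood at 209 ± 50.3 CPM in dmut and 132 ± 25.2 CPM in control (log2 0.66, edgeR adjusted p = 0.138), with each dmut library above each control library, as in Mad1l1. Pttg1, or securin, the inhibitor of separase, had a log2 fold of 0.41 (edgeR adjusted p = 0.183). In the other direction Cep192, a centriole scaffold, was at 62.6 ± 2.08 CPM in dmut and 85.3 ± 3.25 CPM in control (log2 -0.45, edgeR adjusted p = 0.0684), Haus6 of the augmin complex at -0.34 (0.10) and Cenpi of the inner kinetochore at -0.36 (0.127). All 3 were lower in every dmut library than in any control library, but these genes were picked by their small p. Of the 106 genes, 10 were higher and 12 lower without overlap in CPM, against 13.6% and 14.9% of all genes. The S phase list of 48 genes had a median of 0.12, with 34 positive and 0 called (11 at an unadjusted p under 0.05), and 16 tested progenitor markers a median of 0.20, with 0 called (5 at an unadjusted p under 0.05). Sox2, a further progenitor marker, was listed at 0 in all but dmut replicate 2 and was not tested. A listed 0 is not taken as absence of Sox2 from the tissue, and its cause was not tested. Pan-neuronal markers had a median of 0.14 over 15 genes, with 0 called (5 at an unadjusted p under 0.05). With library size alone the medians were -0.083 for the S phase, -0.0006 for the progenitor and -0.059 for the pan-neuronal list.

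The authors' deposited table has 0 members past 0.05 after its adjustment and 3 before it. In the authors' deposited table these are Cks2 (fold 1.60, adjusted p = 0.119), Ube2c (fold 1.48, adjusted p = 0.633) and Cks1b (fold 1.46, adjusted p = 0.823), given as dmut over control. Of the 36 folds in the authors' deposited table, 28 are positive.

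**Figure D5:**
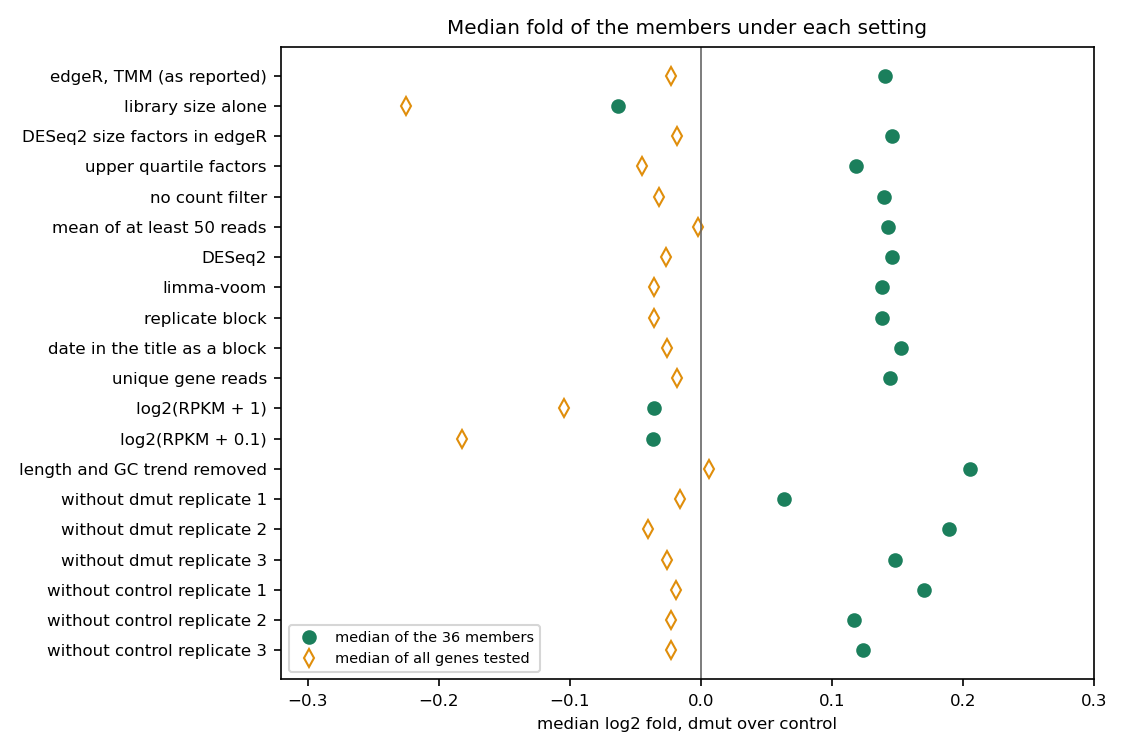
The median log2 fold of dmut over control (horizontal axis) of the 36 members (green circles) and of all genes tested (orange diamonds) under each setting (rows). The member median is -0.06 for plain library sizes and -0.04 for log2(RPKM + 1), and to the right of the all-gene median in every row.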

How the data were processed

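RNA-seq libraries from MGE tissue of 3 dmut and 3 control pools were compared. Per the labels' protocols, oligo beads captured the mRNA and an Ion Total RNA-seq kit was used. GRCm38 (mm10) is the build in the submitters' processing notes. The aligner and counter were not given in the sources used here. Total and unique gene reads are, per the file headers, deposited as whole-number counts, beside RPKM values computed by the authors. No total count lies between 1 and 9. The deposited p-values and the signed fold change, a score that is negative for decreases, are the authors' own test.

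Total gene reads were tested with edgeR 4.0.16 (R 4.3.3): TMM factors, the standard expression filter and a two-sided quasi-likelihood test over all genes, without covariates. CPM values are TMM-scaled; SE was taken from the fold and the F statistic. Alternatives used DESeq2 1.42.0, limma 3.58.1 (voom, and log2(RPKM + 1) or log2(RPKM + 0.1)), other scalings, filters, reads and blocks, and each library left out. The trend removal fitted splines with 4 degrees of freedom to exon length and GC content. The tools were tested on simulated data. Members, lists and length classes were chosen with earlier results of these data known, and values per library are given by a rule that takes extremes of fold and level in each role. Members outside it were named to account for all 36. Exon lengths and coordinates are from GENCODE M21 (GRCm38), which matched 93.32% of gene names once. Depth per library was 26766556 to 34612095 reads.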

Additional observations from a re-analysis of the deposited data

How the results depend on the processing

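Of 684 recomputed member folds, 598 kept their sign and side of the threshold, 10 gained a call and 76 changed sign. The 36 members had 0 calls in edgeR; 1 with library size alone, 5 with DESeq2, 4 at an adjusted p of 0.1, and 0 to 4 with each library left out. All genes called numbered 77, against 135 where genes averaged 50 or more reads, 780 with library size alone, 1783 with DESeq2, 127 with limma-voom, 227 with the replicate block, 0 with the date as a block, 49 with log2(RPKM + 1), 76 with log2(RPKM + 0.1), 43 with the length and GC trend removed, 1065 at an adjusted p of 0.1, and 2 to 585 with each library left out (2 without control replicate 1 or 2, 4 without control replicate 3, 22 without dmut replicate 1, 585 without dmut replicate 2, 12 without dmut replicate 3). The replicate block changed no member's call and gave a member median of 0.14. Deviations of libraries with the same replicate number correlated at 0.110, 0.123 and 0.015, and those of unlike numbers at -0.136 to 0.016. Equal numbers thus gave the highest values for replicates 1 and 2 but not for replicate 3. Replicates 2 and 3 of both groups share a date in their titles while replicate 1 does not, so the numbers were not taken as pairs. The date block left control replicate 1 without a counterpart; the causes of these shifts were not tested. Calls higher in dmut were 33.8% of 77 as reported, 6.67% with library size alone, 56.2% with DESeq2 and 62.1% with the replicate block. The member median of 0.14 became -0.063 with library size alone, -0.036 with log2(RPKM + 1) and -0.037 with log2(RPKM + 0.1), and 0.06 (without dmut replicate 1) to 0.19 (without dmut replicate 2) with each library left out.

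With library size alone the sign changed in 17 uncalled members, whose log2 folds were Ccna2 -0.061, Ccnb1 -0.054, Cdc25b -0.13, Cdc25c -0.14, Aurka -0.056, Aurkb -0.058, Bub1 -0.16, Bub1b -0.014, Mad2l1 -0.093, Cenpa -0.10, Nuf2 -0.079, Nusap1 -0.025, Hmmr -0.12, Prc1 -0.065, Ect2 -0.14, Racgap1 -0.20 and Top2a -0.029. With upper quartile factors these were Racgap1 -0.018. With the date as a block these were Bub1 -0.029, Ect2 -0.016 and Racgap1 -0.00041. With unique gene reads these were Ttk 0.0086 and Anln 0.0016. With log2(RPKM + 1) these were Ccna2 -0.051, Ccnb1 -0.042, Cdc25b -0.11, Cdc25c -0.092, Aurka -0.00092, Aurkb -0.029, Bub1 -0.12, Bub1b -0.0067, Mad2l1 -0.079, Cenpa -0.00062, Nuf2 -0.026, Nusap1 -0.014, Hmmr -0.10, Prc1 -0.047, Ect2 -0.12, Racgap1 -0.19 and Top2a -0.023. With log2(RPKM + 0.1) these were Ccna2 -0.052, Ccnb1 -0.043, Cdc25b -0.12, Cdc25c -0.10, Aurka -0.0010, Aurkb -0.030, Bub1 -0.12, Bub1b -0.0068, Mad2l1 -0.081, Cenpa -0.00065, Nuf2 -0.027, Nusap1 -0.014, Hmmr -0.10, Prc1 -0.049, Ect2 -0.12, Racgap1 -0.19 and Top2a -0.023. With length and GC taken out these were Ttk 0.079, Cenpe 0.064, Cenpf 0.038 and Anln 0.053. With each library left out, signs changed within the ranges Anln -0.065 to 0.059, Bub1 -0.068 to 0.12, Cdc25c -0.076 to 0.16, Cenpe -0.21 to 0.17, Cenpf -0.14 to 0.018, Cit -0.43 to 0.0050, Racgap1 -0.060 to 0.074 and Ttk -0.12 to 0.043.

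Every member had at least 929 reads in each library; the part of depth and of the number of libraries in the calls was not tested.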
